A study of Mus musculus with 9 samples.

Results

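The 9 C-type lectin receptor genes described here are Clec4e, Clec4d, Clec4n, Clec7a, Clec5a, Clec4a2, Clec4a3, Clec12a and Mrc1. They were chosen by name, each symbol matching 1 mouse Ensembl identifier, and make up 9 of the 22001 genes counted. RNA was sequenced from macrophages derived in culture from the bone marrow of C57BL6 mice, phagocytes that serve as a standard model of the cell type. The libraries form 3 groups of 3, all taken at 6 h. By their labels, cells of the 3SL group received Pam3CSK4 at 100 µg/ml together with 3SL, whose dose is stated as 100 µl/ml and so as a volume, and their libraries are A2plus, B2plus and C2plus. Cells of the Pam3CSK4 group are labelled as given Pam3CSK4 alone at 100 µg/ml, and their libraries are D1, D2 and D3. Untreated cells are labelled as given PBS, and their libraries are A2, B2 and C2. Pam3CSK4 is a synthetic lipopeptide and a ligand of Toll-like receptors. The name 3SL is read from the series title as 3'-sialyllactose, a sugar found in milk. For that group the titles say Pamc4 and the treatment tag says Pamc4-CSL, while the descriptions, which were followed, name Pam3CSK4 and 3SL. No transgene or deletion is named for any group. Separate cultures or animals are not stated for the 3 libraries of a group, so all p-values rest on the spread among these samples, and that spread may be technical.

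C-type lectin receptors bind sugars and lipids on microbes and on dying cells through a lectin-like domain. Mincle (Clec4e), its partner MCL (Clec4d), Dectin-2 (Clec4n) and Dectin-1 (Clec7a) pass an activating signal to the kinase Syk, either through an adaptor that carries an ITAM motif or, for Dectin-1, through a related motif in the receptor's own tail. Syk then acts through the complex of Card9, Bcl10 and Malt1 on the NF-κB pathway. Other members, such as DCIR (Clec4a2) and MICL (Clec12a), carry an inhibitory ITIM motif that recruits phosphatases. The mannose receptor (Mrc1) is mainly an endocytic receptor, and it is widely used as a marker of alternatively activated macrophages.

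The inflammatory genes go against the treatment labels, which bears on every comparison. Il1b, the gene of interleukin-1 beta, stood at 7495, 8353 and 8561 CPM (counts per 1000000 counts of the scaled library total) in the 3SL-labelled libraries, at 7.36, 4.3 and 7.03 CPM in the Pam3CSK4-labelled libraries and at 10260, 10559 and 9661 CPM in the untreated-labelled libraries. Tnf, the gene of tumour necrosis factor, stood at 1219, 1250 and 1332 CPM in the 3SL-labelled, at 18.9, 17.6 and 18.6 CPM in the Pam3CSK4-labelled and at 1731, 1729 and 1651 CPM in the untreated-labelled libraries. Both genes, which Toll-like receptor ligands are known to raise, were thus at their lowest where Pam3CSK4 alone is the label, and groups are named by label throughout. The letter D belongs to the Pam3CSK4-labelled libraries and the letters A to C to the other 6, so the treatment, an exchange of labels and whatever the letter stands for cannot be told apart. Total counts ran between 7472482 and 43980309 per library, and single counts of the 9 genes between 236 and 109689. Of 8 macrophage markers all 8 passed the filter on low counts, with a summed level of 21569 to 22142 CPM in the 3SL-labelled, 16407 to 16835 CPM in the Pam3CSK4-labelled and 22199 to 22669 CPM in the untreated-labelled libraries. Most of that sum was Lyz2, which averaged 13552 CPM in the 3SL-labelled, 11382 CPM in the Pam3CSK4-labelled and 14155 CPM in the untreated-labelled libraries.

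Compared per kilobase of exon, Clec4d was the most abundant of the 9 genes in every group, and Clec4e was second in 2 groups and last in the third. This order depends on the lengths used. In CPM not divided by length, Clec4e had the highest mean in the 3SL-labelled (1960) and untreated-labelled (2744) libraries. Mrc1 had it in the Pam3CSK4-labelled ones (1195). Clec4d averaged 916 ± 38.8 CPM per kb in the 3SL-labelled, 418 ± 9.31 in the Pam3CSK4-labelled and 965 ± 41.4 in the untreated-labelled libraries (SD, n = 3 each), and among 11462 genes with a length it ranked 37 in the 3SL-labelled, 55 in the Pam3CSK4-labelled and 39 in the untreated-labelled libraries. Clec4e averaged 395 ± 26.0 CPM per kb in the 3SL-labelled, 3.68 ± 0.247 in the Pam3CSK4-labelled and 553 ± 7.13 in the untreated-labelled libraries (SD, n = 3 each). It ranked 99 in the 3SL-labelled, 7177 in the Pam3CSK4-labelled and 66 in the untreated-labelled libraries. Mrc1 held second place among the 9 genes in the Pam3CSK4-labelled libraries, at 188 ± 2.49 CPM per kb, against 77.5 ± 0.811 in the 3SL-labelled and 77.7 ± 1.4 in the untreated-labelled libraries (SD, n = 3 each).

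In the 3SL-labelled libraries the order per kilobase, high to low, was Clec4d, Clec4e, Clec4n, Clec12a, Clec5a, Clec4a2, Mrc1, Clec4a3 and Clec7a. Neighbours whose libraries overlapped there were Clec4n with Clec12a, Clec5a with Clec4a2, and Clec4a3 with Clec7a. The Pam3CSK4-labelled order was Clec4d, Mrc1, Clec12a, Clec7a, Clec4n, Clec4a2, Clec4a3, Clec5a and Clec4e, and no neighbours overlapped. Among untreated-labelled libraries the order was Clec4d, Clec4e, Clec12a, Clec4n, Clec5a, Mrc1, Clec4a2, Clec7a and Clec4a3, with an overlap of Clec12a and Clec4n.

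**Figure D1:**
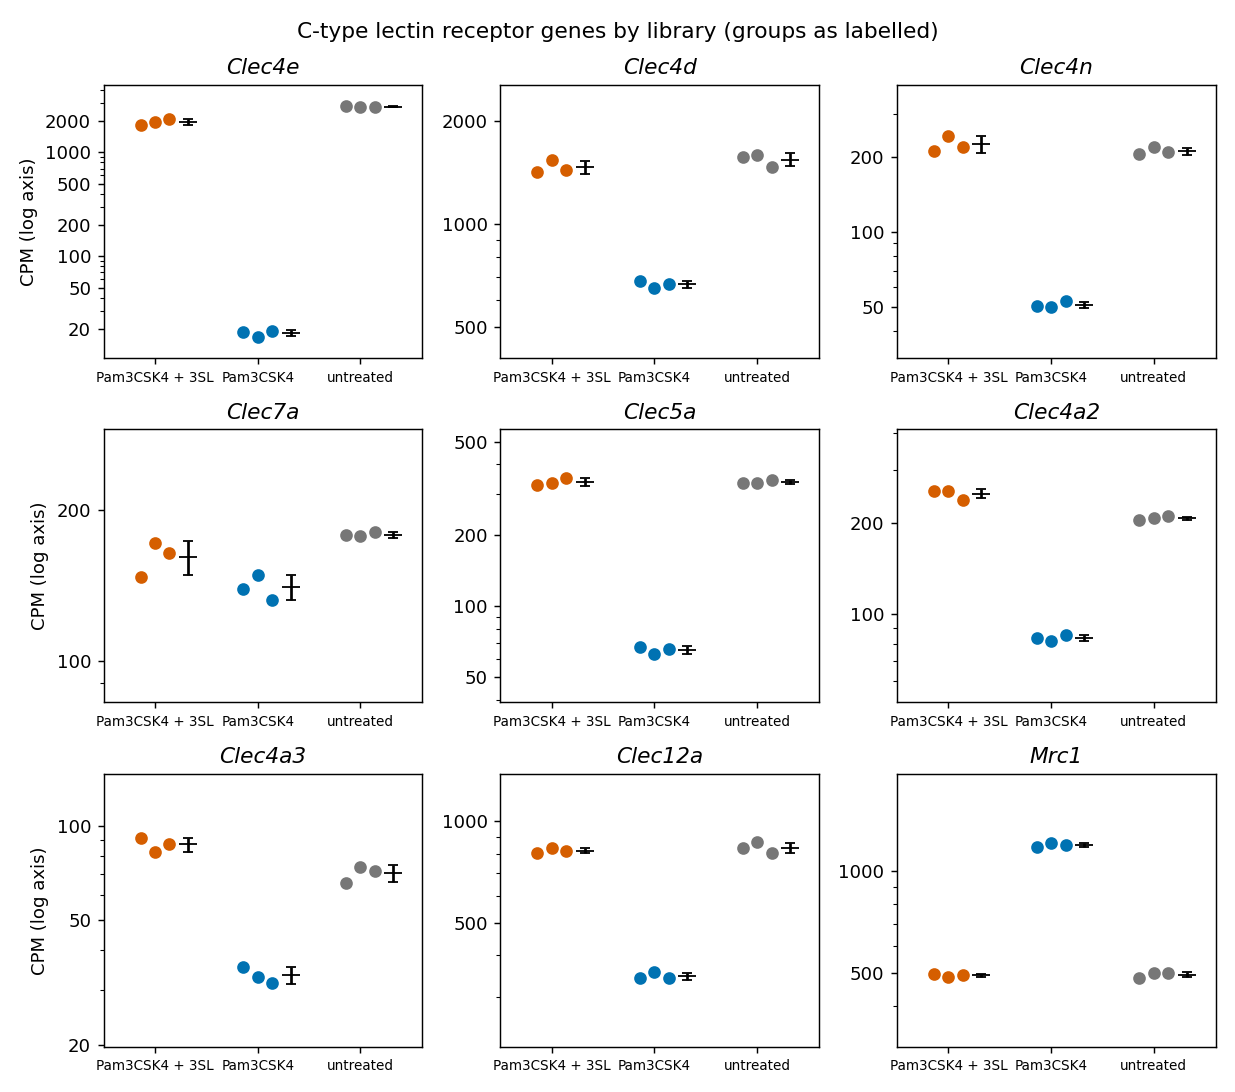
Level of each of the 9 genes in every library, in CPM on a log axis that differs between panels, for the 3SL-labelled (orange, "Pam3CSK4 + 3SL"), Pam3CSK4-labelled (blue) and untreated-labelled (grey) groups; bars show mean ± SD (n = 3). The blue points of Clec4e lie between 16.9 and 19.1 CPM, below every orange and grey point, and those of Mrc1 lie between 1180 and 1212 CPM, above every other point.

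Clec4e encodes Mincle, a receptor for mycobacterial glycolipids and for signals of cell death, and it showed the widest differences of the 9. It stood at 1835, 1952 and 2093 CPM in the 3SL-labelled libraries, at 18.9, 16.9 and 19.1 CPM in the Pam3CSK4-labelled libraries and at 2785, 2726 and 2722 CPM in the untreated-labelled libraries. The 3 groups did not overlap, with the Pam3CSK4-labelled libraries far below both others and the 3SL-labelled libraries below the untreated-labelled ones. Clec4e was 151-fold lower in the Pam3CSK4-labelled than in the untreated-labelled libraries, a log2 change of -7.24 (SE 0.053; edgeR quasi-likelihood test, Benjamini-Hochberg adjusted p = 3.2e-35), and only 43 of the 11469 tested genes (0.375%) had a more negative change. In the 3SL-labelled libraries it was 108-fold higher than in the Pam3CSK4-labelled ones (log2 change 6.75, SE 0.052, edgeR adjusted p = 1.14e-34), with 47 genes (0.41%) more positive. Against the untreated-labelled libraries the 3SL-labelled ones had 1.4-fold less (log2 change -0.49, SE 0.035, edgeR adjusted p = 1.92e-10), and 258 genes (2.25%) had a more negative change. In bulk RNA, fewer cells that express a gene and less of its RNA per cell cannot be told apart, here and for all values that follow.

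Clec4d encodes MCL, which forms a complex with Mincle and helps to bring it to the cell surface. Its levels were 1419, 1535 and 1438 CPM in the 3SL-labelled, 681, 652 and 671 CPM in the Pam3CSK4-labelled and 1570, 1590 and 1467 CPM in the untreated-labelled libraries. All Pam3CSK4-labelled libraries were below the others, and the other groups overlapped. The gene was 2.31-fold lower in the Pam3CSK4-labelled than in the untreated-labelled libraries (log2 change -1.21, SE 0.034, edgeR adjusted p = 4.07e-22) and 2.19-fold higher in 3SL-labelled than in Pam3CSK4-labelled ones (1.13, SE 0.034, edgeR adjusted p = 2.62e-21). The difference between the 3SL-labelled and untreated-labelled libraries was -0.08 (SE 0.034, edgeR adjusted p = 0.18). It was -0.11 and past the threshold without C2 (edgeR adjusted p = 0.0443) or without B2plus (edgeR adjusted p = 0.0448), within a range of 0.0443 to 0.539 over the 16 alternatives.

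Clec4n encodes Dectin-2, which binds fungal mannans and signals through Fcer1g. It was found at 212, 245 and 221 CPM in the 3SL-labelled, 50.3, 49.8 and 52.7 CPM in the Pam3CSK4-labelled and 206, 220 and 211 CPM in the untreated-labelled libraries. Again the Pam3CSK4-labelled libraries lay apart and below, and the other groups overlapped. In the Pam3CSK4-labelled libraries Clec4n was 4.18-fold lower than in the untreated-labelled ones (log2 change -2.06, SE 0.05, edgeR adjusted p = 1.21e-23). In the 3SL-labelled libraries it was 4.45-fold higher than in the Pam3CSK4-labelled ones (2.15, SE 0.052, edgeR adjusted p = 1.09e-23), and 0.09 on the log2 scale from the untreated-labelled ones (SE 0.045, edgeR adjusted p = 0.239).

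Clec7a encodes Dectin-1, the receptor for fungal beta-glucans, and of the 9 genes it had the smallest log2 changes in both comparisons with the Pam3CSK4-labelled libraries. Its level was 147, 172 and 164 CPM in the 3SL-labelled, 139, 148 and 132 CPM in the Pam3CSK4-labelled and 178, 177 and 181 CPM in the untreated-labelled libraries. The 3SL-labelled and Pam3CSK4-labelled libraries overlapped, and both lay below the untreated-labelled ones. The Pam3CSK4-labelled libraries were 1.27-fold lower than the untreated-labelled ones (log2 change -0.35, SE 0.047, edgeR adjusted p = 1.68e-07), and the 3SL-labelled libraries 1.16-fold higher than the Pam3CSK4-labelled ones (0.21, SE 0.049, edgeR adjusted p = 0.000477). Both calls ended when library size alone set the scale. The first was then -0.04 (edgeR adjusted p = 0.464, range 1.1e-14 to 0.464 over 15 alternatives), and the second turned to -0.06 (edgeR adjusted p = 0.229, range 2.41e-05 to 0.229). Between the 3SL-labelled and untreated-labelled libraries the log2 difference was -0.14 (SE 0.048, edgeR adjusted p = 0.0704). That value passed the threshold in 3 of the 16 alternatives, at -0.19 without B2plus (edgeR adjusted p = 0.0201, range 0.012 to 0.403).

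Clec5a encodes a receptor without a signalling tail of its own, which pairs with the adaptors of Tyrobp and Hcst. It was at 326, 335 and 352 CPM in the 3SL-labelled, 67.4, 62.7 and 66.3 CPM in the Pam3CSK4-labelled and 335, 334 and 345 CPM in the untreated-labelled libraries. Those labelled Pam3CSK4 stood alone at the low end, while the others covered the same range. Clec5a was 5.17-fold lower in the Pam3CSK4-labelled than in the untreated-labelled libraries (log2 change -2.37, SE 0.041, edgeR adjusted p = 5.9e-27). It was 5.17-fold higher in 3SL-labelled than in Pam3CSK4-labelled libraries (2.37, SE 0.042, edgeR adjusted p = 1.18e-26). After Clec4e these were the widest differences among the 9 genes. The 3SL-labelled and untreated-labelled means were 338 ± 13.2 CPM and 338 ± 6.47 CPM (SD, n = 3 each; edgeR adjusted p = 0.99).

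Both genes of inhibitory receptors were likewise lowest at the Pam3CSK4 label. Clec12a encodes MICL, an ITIM-bearing receptor for uric acid crystals, and stood at 806, 835 and 816 CPM in the 3SL-labelled, 341, 356 and 341 CPM in the Pam3CSK4-labelled and 832, 866 and 808 CPM in the untreated-labelled libraries. Its Pam3CSK4-labelled libraries lay below all others, by 2.41-fold against the untreated-labelled ones (log2 change -1.27, SE 0.033, edgeR adjusted p = 4.77e-23), and the 3SL-labelled libraries were 2.37-fold above them (1.24, SE 0.033, edgeR adjusted p = 1.31e-22). Its 3SL-labelled and untreated-labelled libraries overlapped, with a log2 difference of -0.03 (SE 0.032, edgeR adjusted p = 0.659). Clec4a2 encodes the ITIM-bearing DCIR, and stood at 256, 256 and 240 CPM in the 3SL-labelled, 83.3, 81.7 and 85.4 CPM in the Pam3CSK4-labelled and 206, 208 and 211 CPM in the untreated-labelled libraries. Its groups did not overlap, and the 3SL-labelled libraries were the highest. It was 2.49-fold lower in the Pam3CSK4-labelled than in the untreated-labelled libraries (log2 change -1.32, SE 0.04, edgeR adjusted p = 2.14e-21) and 3.01-fold higher in 3SL-labelled than in Pam3CSK4-labelled libraries (1.59, SE 0.041, edgeR adjusted p = 6.03e-23). Against the untreated-labelled libraries the 3SL-labelled ones were 1.21-fold higher (0.27, SE 0.038, edgeR adjusted p = 1.43e-05).

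Clec4a3, a gene of the DCIR family in the same cluster, had the order of groups seen for Clec4a2. It stood at 91.4, 82.4 and 87.5 CPM in the 3SL-labelled, 35.4, 32.9 and 31.5 CPM in the Pam3CSK4-labelled and 65.4, 73.8 and 71.9 CPM in the untreated-labelled libraries. No groups overlapped, and the 3SL-labelled libraries were again the highest. The Pam3CSK4-labelled libraries were 2.13-fold lower than the untreated-labelled ones (log2 change -1.09, SE 0.06, edgeR adjusted p = 2.12e-15), and the 3SL-labelled libraries 2.61-fold higher than the Pam3CSK4-labelled ones (1.39, SE 0.063, edgeR adjusted p = 3.08e-17). The 3SL-labelled libraries were also 1.23-fold higher than the untreated-labelled ones (0.3, SE 0.056, edgeR adjusted p = 0.000586). Clec4a2 and Clec4a3 kept this call in all 16 alternatives, with log2 changes of 0.25 to 0.31 and 0.25 to 0.35. Of the 50-base stretches of Clec4a2 transcripts, 6.83% (202 of 2959) also occur in transcripts of other genes, 114 of them in those of Clec4a4 and 68 in those of Clec4b1. Reads from such stretches may be divided between genes, while Clec4a3 shared no such stretch.

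Mrc1 was the one gene of the 9 that ran the other way. It stood at 498, 488 and 494 CPM in the 3SL-labelled, 1180, 1212 and 1194 CPM in the Pam3CSK4-labelled and 485, 501 and 500 CPM in the untreated-labelled libraries. Every Pam3CSK4-labelled library was above every other library, and the 3SL-labelled and untreated-labelled libraries overlapped. The log2 change was 1.27 (SE 0.029, edgeR adjusted p = 3.63e-24) in the Pam3CSK4-labelled against the untreated-labelled libraries and -1.28 (SE 0.03, edgeR adjusted p = 6.24e-24) in 3SL-labelled against Pam3CSK4-labelled libraries. The 3SL-labelled libraries differed from the untreated-labelled ones by -0.01 (SE 0.03, edgeR adjusted p = 0.947).

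Counted over the 9 genes, 8 were lower and 1 higher in the Pam3CSK4-labelled than in the untreated-labelled libraries, and all 9 had groups that did not overlap. Their median log2 change was -1.27, against 0.03 over all tested genes. In that comparison 75.0% of all 11469 tested genes were called in either direction, 35.9% lower and 39.0% higher, and 76.0% had groups that did not overlap, so that being called is the common case there. In 3SL-labelled against Pam3CSK4-labelled libraries 8 were higher and 1 lower, with groups apart for 8 of the 9 and a median log2 change of 1.39, against -0.02 over all tested genes. There 71.5% of all tested genes were called, 34.7% higher and 36.8% lower, and 73.1% had groups that did not overlap. These comparisons share the Pam3CSK4-labelled libraries, so their opposite signs are not independent of each other.

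In 3SL-labelled against untreated-labelled libraries 2 of the 9 genes were higher (Clec4a2 and Clec4a3), 1 was lower (Clec4e) and 6 did not pass the test, with a median of -0.01. Of all tested genes 8.94% were called, 3.83% higher and 5.11% lower. The count of lower genes rested partly on single libraries, with 2 lower without C2 (Clec4e and Clec4d) and 3 lower without B2plus (Clec4e, Clec4d and Clec7a). Groups did not overlap for 4 of the 9, against 24.0% of all tested genes.

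The scale itself moved with the group. TMM factors, which rescale each library's total, were 1.142 to 1.15 in the Pam3CSK4-labelled libraries, and the 3SL-labelled and untreated-labelled libraries had 0.9156 to 0.9529. With library size alone the median log2 change of all tested genes was 0.34 for the Pam3CSK4-labelled against the untreated-labelled libraries, with 6882 genes higher and 2380 lower in place of 4474 and 4123. The median was -0.29 for 3SL-labelled against Pam3CSK4-labelled libraries, with 2434 higher and 6393 lower in place of 3978 and 4226. For 3SL-labelled against untreated-labelled libraries 788 were higher and 406 lower, in place of 439 and 586. Among the 9 genes, Clec7a alone lost calls under that scale, as given above.

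**Figure D2:**
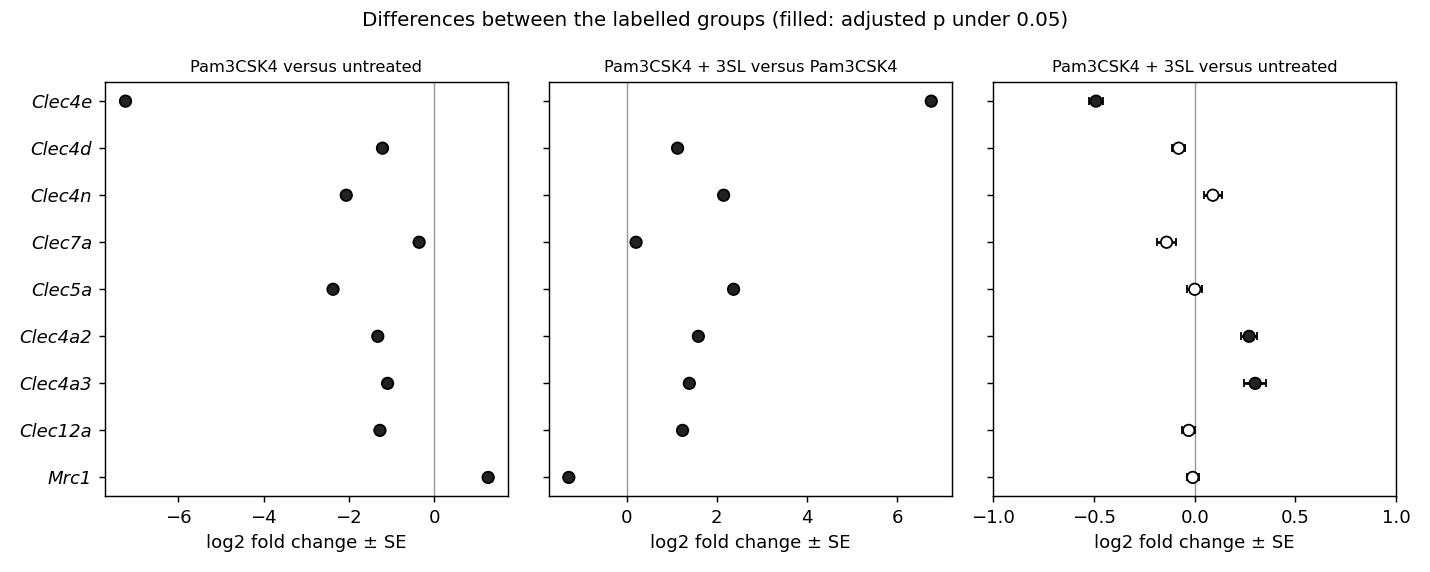
Log2 fold change ± SE of each of the 9 genes in the 3 comparisons, positive where the group named first in the panel title is higher; filled points have an edgeR adjusted p under 0.05, and the third panel has a finer axis. Clec4e reaches -7.24 and 6.75, Mrc1 has the opposite sign to the other genes in the first and second panels, and in the third panel the points lie between -0.49 and 0.3; the point of Clec7a in the second panel, 0.21, turns to -0.06 with library size alone.

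The make-up of the 9 genes changed along with their total. Their summed level was 5799 ± 180 CPM in the 3SL-labelled, 2600 ± 9.43 CPM in the Pam3CSK4-labelled and 6625 ± 94.7 CPM in the untreated-labelled libraries (SD, n = 3 each). Most of each difference in that sum was Clec4e, which averaged 1960 CPM in the 3SL-labelled, 18.3 CPM in the Pam3CSK4-labelled and 2744 CPM in the untreated-labelled libraries. As a share of the counts per length of the 9 genes, which does not depend on how libraries are scaled, Clec4d held 45.9% ± 0.919 in the 3SL-labelled, 50.3% ± 0.783 in the Pam3CSK4-labelled and 44.3% ± 0.975 in the untreated-labelled libraries. Clec4e held 19.8% ± 1.09 in the 3SL-labelled, 0.443% ± 0.0277 in the Pam3CSK4-labelled and 25.4% ± 0.542 in the untreated-labelled libraries. Mrc1 held 3.89% ± 0.166 in the 3SL-labelled, 22.6% ± 0.463 in the Pam3CSK4-labelled and 3.57% ± 0.112 in the untreated-labelled libraries (SD, n = 3 each). Clec12a kept a near-even share, at 7.43% ± 0.121 in the 3SL-labelled, 7.53% ± 0.229 in the Pam3CSK4-labelled and 6.95% ± 0.113 in the untreated-labelled libraries.

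Ratios between genes show the same within single libraries. Per length there were 0.416, 0.41 and 0.469 Clec4e counts for each Clec4d count in the 3SL-labelled libraries, 0.00893, 0.00834 and 0.00918 in the Pam3CSK4-labelled libraries and 0.571, 0.552 and 0.598 in the untreated-labelled libraries. The proportion of the Mincle and MCL messenger RNAs thus differed between all 3 groups without overlap. Which partner was in excess in the 3SL-labelled and untreated-labelled libraries depends on the lengths used. Not divided by length, the ratio averaged 1.34 in the 3SL-labelled, 0.0274 in the Pam3CSK4-labelled and 1.78 in the untreated-labelled libraries. Mrc1 to Clec4e per length was 0.212, 0.195 and 0.184 in the 3SL-labelled, 48.7, 56.0 and 48.7 in the Pam3CSK4-labelled and 0.136, 0.143 and 0.143 in the untreated-labelled libraries. By contrast, Clec4d to Clec12a per length was 6.08, 6.35 and 6.09 in the 3SL-labelled, 6.91, 6.33 and 6.79 in the Pam3CSK4-labelled and 6.52, 6.35 and 6.28 in the untreated-labelled libraries, with overlap among all groups.

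**Figure D3:**
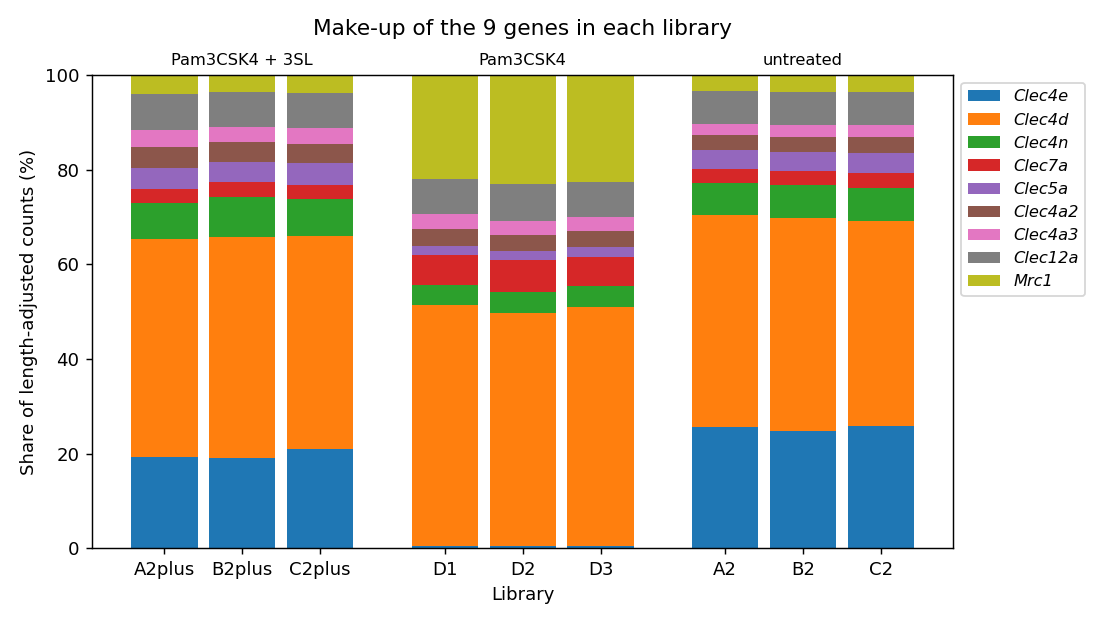
Share of each of the 9 genes in their summed counts per length, as stacked bars adding to 100% in each of the 9 libraries, with groups named above the bars as labelled. The Clec4e share at the bottom nearly vanishes in D1, D2 and D3 (0.412 to 0.464%), where the Mrc1 share at the top is 22.1 to 23.0%.

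Of the 9 genes 8 lie on mouse chromosome 6, and Mrc1 lies on chromosome 2 (chr2:14229392-14332057, plus strand; GENCODE M21 annotation on GRCm38, 1-based). Clec5a lies alone at chr6:40574894-40585821 on the minus strand. Of a run of 9 lectin genes between Clec4a1 and Clec4e that spans 368023 bases, 5 are members: Clec4a3 (chr6:122952515-122969875), Clec4a2 (chr6:123106428-123143999), Clec4n (chr6:123229843-123247021) and Clec4d (chr6:123262111-123275265), all on the plus strand, and Clec4e (chr6:123281789-123289870) on the minus strand. Clec4d and Clec4e are neighbours whose ends face each other across 6523 bases. Farther along, Clec12a (chr6:129342691-129365303, plus strand) and Clec7a (chr6:129461591-129472779, minus strand) bound a stretch of 130089 bases with 6 lectin genes. GENCODE M21 files Clec7a as a polymorphic pseudogene and the other 8 as protein-coding genes, and no exon of the 9 overlaps an exon of another gene.

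Neighbours along these stretches differed in the size of their changes. In the first, Clec4a1, a DCIR-family gene outside the 9, stood beside Clec4a3 and was 8.07-fold higher in 3SL-labelled than in Pam3CSK4-labelled libraries (log2 change 3.01, SE 0.044, edgeR adjusted p = 1.05e-28), against 2.61-fold for Clec4a3. Clec4b1, between Clec4a3 and Clec4a2, was at 2.7 ± 1.16 CPM in the 3SL-labelled, 2.14 ± 0.222 CPM in the Pam3CSK4-labelled and 2.68 ± 0.943 CPM in the untreated-labelled libraries (SD, n = 3 each) and did not pass the test in any comparison. Clec4b2, between Clec4a2 and Clec4n, averaged 0.498 ± 0.451 CPM in the 3SL-labelled, 0.839 ± 0.293 CPM in the Pam3CSK4-labelled and 0.404 ± 0.27 CPM in the untreated-labelled libraries and also passed in none. With library size alone Clec4b2 was called higher in the Pam3CSK4-labelled than in the untreated-labelled libraries (log2 change 1.18, edgeR adjusted p = 0.0236). In the second stretch, the 4 genes between Clec12a and Clec7a averaged at most 1.22 CPM in any group, the value of Clec1b in the 3SL-labelled libraries. Clec4b1, Clec4b2 and Clec1b were named after their values were seen, for their place between the 9 genes.

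**Figure D4:**
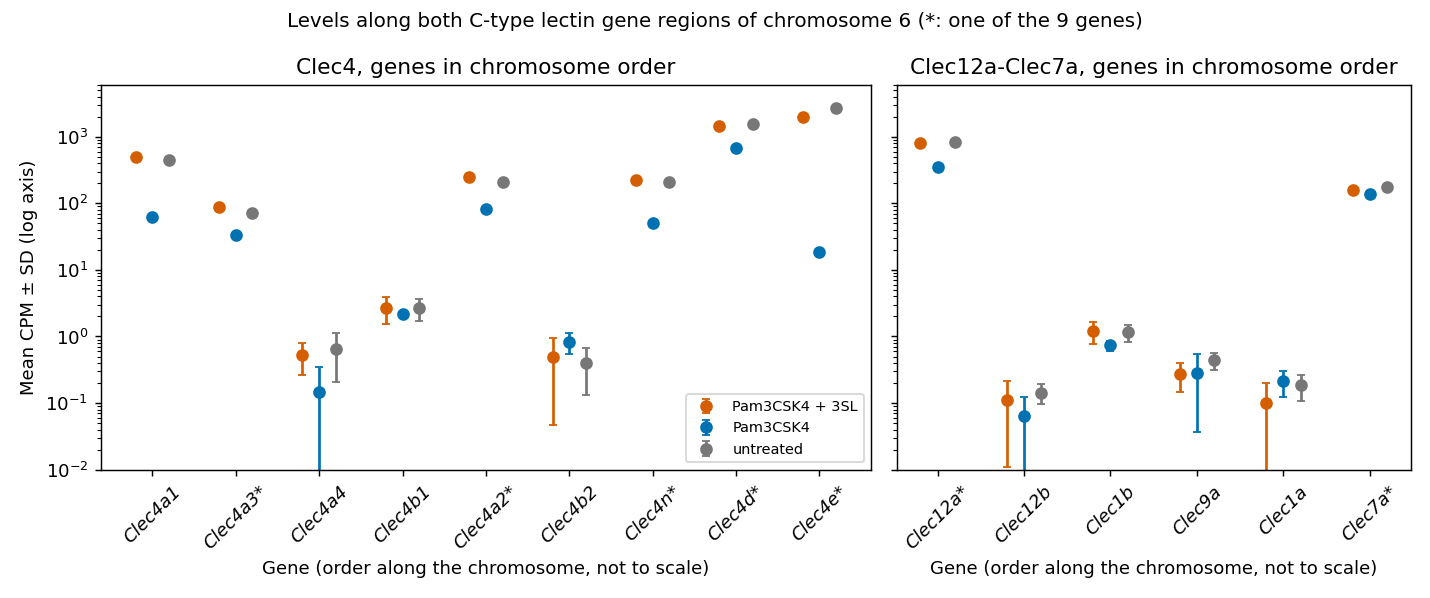
Mean CPM ± SD (n = 3) on a log axis for lectin genes in chromosome order along both stretches of chromosome 6, not to scale and not divided by length, so points are to be compared within a gene; an asterisk marks one of the 9 genes, and lower bars that would reach 0.01 CPM or less run off the axis. The distance between the Pam3CSK4-labelled (blue) point and the other points is wide at Clec4e and narrow at its neighbour Clec4d and at Clec7a, while the genes between members stay at or under 2.7 CPM.

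Promoters are shown for the gene with the widest change (Clec4e), its neighbour and partner (Clec4d), the gene with the smallest change in the comparisons with the Pam3CSK4-labelled libraries (Clec7a) and the gene that ran the other way (Mrc1). RefSeq windows of 250 bases before to 50 after the start, on GRCm38.p6, were matched for 8 of the 9 genes, Clec4n being the one without. In the sequences, read 5′ to 3′ along the gene's strand, capitals mark matches on either strand to 5 motif words: C/EBP (TTGCNNAA), AP-1 (TGANTCA), PU.1 (GAGGAAG), a κB-like word (GGGNNNNNCC) and a TATA box (TATAAA). Positions count the start site as 1 and the base before it as -1. Clec4e is chr6:123289822-123290121 on the minus strand, Clec4d is chr6:123261857-123262156 on the plus strand, Clec7a is chr6:129472730-129473029 on the minus strand and Mrc1 is chr2:14229164-14229463 on the plus strand.
Clec4e: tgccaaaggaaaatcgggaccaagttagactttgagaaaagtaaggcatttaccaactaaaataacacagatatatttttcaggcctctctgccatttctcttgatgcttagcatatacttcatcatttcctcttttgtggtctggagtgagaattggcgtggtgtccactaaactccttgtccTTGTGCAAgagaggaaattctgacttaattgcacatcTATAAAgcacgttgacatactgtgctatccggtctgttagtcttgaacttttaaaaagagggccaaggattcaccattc
Clec4d: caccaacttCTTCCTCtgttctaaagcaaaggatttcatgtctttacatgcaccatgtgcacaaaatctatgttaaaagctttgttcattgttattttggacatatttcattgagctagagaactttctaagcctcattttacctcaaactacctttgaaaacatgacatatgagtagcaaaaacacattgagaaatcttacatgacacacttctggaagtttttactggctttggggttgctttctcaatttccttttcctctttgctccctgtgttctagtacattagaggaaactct
Clec7a: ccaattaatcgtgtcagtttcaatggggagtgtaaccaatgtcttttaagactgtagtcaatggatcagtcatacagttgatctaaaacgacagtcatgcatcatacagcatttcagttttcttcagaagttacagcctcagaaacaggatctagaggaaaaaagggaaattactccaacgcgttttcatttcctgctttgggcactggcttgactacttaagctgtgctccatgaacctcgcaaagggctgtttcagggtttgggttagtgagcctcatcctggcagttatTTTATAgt
Mrc1: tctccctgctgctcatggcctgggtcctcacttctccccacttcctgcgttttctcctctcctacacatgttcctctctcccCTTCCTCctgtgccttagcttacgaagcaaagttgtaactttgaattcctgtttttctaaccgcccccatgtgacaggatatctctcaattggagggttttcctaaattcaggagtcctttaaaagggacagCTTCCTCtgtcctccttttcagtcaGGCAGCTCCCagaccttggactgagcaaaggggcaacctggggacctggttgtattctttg

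The Clec4e window held a C/EBP word beginning at -66 on the opposite strand and a TATA word at -29 on the gene's strand. Of all 32851 mouse windows of this length, 10.8% held the C/EBP word and 13.6% the TATA word. Clec4d had 1 match, a PU.1 word at -241, and Clec7a a TATA word at 43, both on the opposite strand. A second Clec7a window, chr6:129472736-129473035, held no match. Mrc1 had PU.1 words at -168 and -36 and a κB-like word at -11, all on the opposite strand. PU.1 words occur in 13.6% of all windows and the loose κB-like word in 50.8%. Among the windows not shown, Clec5a had PU.1 words at -82 and -56 and a TATA word at -209, all on the opposite strand. Clec4a2 had an AP-1 word at 32 (7.81% of all windows) and a TATA word at -161. Clec12a had words for C/EBP at -140 (on both strands), AP-1 at -213 and PU.1 at -61, and Clec4a3 had no match. The Clec12a and Clec4a2 windows lie at a RefSeq start inside the GENCODE gene. A match describes letters and does not show that a factor binds there.

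Signalling genes downstream of these receptors were called in both directions, as were all tested genes. Of 28 adaptor, kinase, Card9-complex, phosphatase and NFAT genes, all 28 tested, 14 were lower, 10 higher and 4 not called in the Pam3CSK4-labelled against the untreated-labelled libraries, with a median log2 change of -0.22. In 3SL-labelled against Pam3CSK4-labelled libraries 15 were higher, 10 lower and 3 not called (median 0.22), and in 3SL-labelled against untreated-labelled libraries 5 were higher, 2 lower and 21 not called (median 0.02). Over all tested genes 35.9% were lower and 39.0% higher in the first of these comparisons, 34.7% higher and 36.8% lower in the second, and 3.83% higher and 5.11% lower in the third. With library size alone the first comparison gave 12 lower and 13 higher, and the second 12 higher and 12 lower. Without A2plus the 5 higher genes of the last comparison became 2, and without A2 or B2 they became 3.

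Malt1, the protease of the Card9 complex, had the smallest p of the list in 3SL-labelled against Pam3CSK4-labelled libraries. Its levels were 634, 638 and 706 CPM in the 3SL-labelled, 41.6, 38.2 and 36.4 CPM in the Pam3CSK4-labelled and 817, 789 and 804 CPM in the untreated-labelled libraries, with no overlap. It was 17.1-fold higher in 3SL-labelled than in Pam3CSK4-labelled libraries (log2 change 4.09, SE 0.049, edgeR adjusted p = 1.46e-30). Like Clec4e it was also lower in 3SL-labelled than in untreated-labelled libraries, by a log2 change of -0.28 (SE 0.038, edgeR adjusted p = 8.22e-06). Syk is the kinase to which Mincle, MCL, Dectin-2 and Dectin-1 pass their activating signal. It stood at 1499, 1485 and 1573 CPM in the 3SL-labelled, 274, 288 and 284 CPM in the Pam3CSK4-labelled and 1517, 1544 and 1564 CPM in the untreated-labelled libraries. Only those labelled Pam3CSK4 stood apart, lower than the rest, and the 3SL-labelled ones were 5.38-fold above them (2.43, SE 0.032, edgeR adjusted p = 1.33e-29).

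The adaptor genes had smaller log2 changes than the receptor genes they serve, a difference that was not itself tested. Fcer1g, the ITAM adaptor of Mincle, MCL and Dectin-2, averaged 838 ± 28.8 CPM in the 3SL-labelled, 548 ± 15.3 CPM in the Pam3CSK4-labelled and 862 ± 13.6 CPM in the untreated-labelled libraries (SD, n = 3 each), a log2 change of 0.61 (SE 0.032, edgeR adjusted p = 8.77e-16) in 3SL-labelled against Pam3CSK4-labelled libraries. Tyrobp, which pairs with Clec5a, averaged 594 ± 23.4 CPM in the 3SL-labelled, 624 ± 10.5 CPM in the Pam3CSK4-labelled and 611 ± 17.3 CPM in the untreated-labelled libraries. In 3SL-labelled against Pam3CSK4-labelled libraries its log2 change of -0.07 was not called (SE 0.033, edgeR adjusted p = 0.0608), and it was -0.34 and called lower with library size alone (edgeR adjusted p = 2.04e-10). Card9 averaged 54.6 ± 2.99 CPM in the 3SL-labelled, 47.6 ± 1.94 CPM in the Pam3CSK4-labelled and 50.6 ± 1.49 CPM in the untreated-labelled libraries. Its log2 change of 0.2 in 3SL-labelled against Pam3CSK4-labelled libraries was called (SE 0.061, edgeR adjusted p = 0.00533) and was -0.08 and not called with library size alone (edgeR adjusted p = 0.258). Fcer1g, Tyrobp and Card9 were named after their values were seen.

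The 10 signalling genes that were lower in 3SL-labelled than in Pam3CSK4-labelled libraries, against most of the list, were Rasgrp3, Nfatc2, Cblb, Nfatc1, Vav3, Itpr1, Inpp5d, Trim62, Ppp3ca and Nfatc3. Cblb, a ubiquitin ligase known to restrain Dectin-1 and Dectin-2 signalling, averaged 32.6 ± 0.797 CPM in the 3SL-labelled, 132 ± 5.28 CPM in the Pam3CSK4-labelled and 33.0 ± 0.506 CPM in the untreated-labelled libraries (SD, n = 3 each). The log2 change of Cblb was -2.02 (SE 0.054, edgeR adjusted p = 1.49e-22) in 3SL-labelled against Pam3CSK4-labelled libraries. Inpp5d, the gene of the lipid phosphatase SHIP, averaged 225 ± 8.85 CPM in the 3SL-labelled, 353 ± 4.75 CPM in the Pam3CSK4-labelled and 186 ± 5.57 CPM in the untreated-labelled libraries. Its log2 change in the 3SL-labelled libraries was -0.65 against the Pam3CSK4-labelled ones (SE 0.037, edgeR adjusted p = 7.25e-15) and 0.28 against the untreated-labelled ones (SE 0.038, edgeR adjusted p = 1.17e-05). Nfatc2, a calcineurin-dependent transcription factor, averaged 8.96 ± 2.51 CPM in the 3SL-labelled, 43.7 ± 0.847 CPM in the Pam3CSK4-labelled and 5.62 ± 0.813 CPM in the untreated-labelled libraries. Rasgrp3, a Ras activator, averaged 0.609 ± 0.472 CPM in the 3SL-labelled, 29.0 ± 1.82 CPM in the Pam3CSK4-labelled and 1.01 ± 0.379 CPM in the untreated-labelled libraries. The remaining 6 had log2 changes between -1.26 (Nfatc1) and -0.21 (Nfatc3).

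Of 41 other C-type lectin genes 17 passed the filter on low counts, 4 had no count in any library, and the 24 that did not pass reached at most 1.2 CPM. Of the 17, 8 were lower, 5 higher and 4 not called in the Pam3CSK4-labelled against the untreated-labelled libraries (median log2 change -0.52), and 8 were higher, 5 lower and 4 not called in 3SL-labelled against Pam3CSK4-labelled libraries (median 0.76). In 3SL-labelled against untreated-labelled libraries 3 were higher, 3 lower and 11 not called (median 0.17), and 5 were lower without C2plus. The 13 of 17 called in each of the first and second comparisons stand beside 75.0% and 71.5% of all tested genes, a share near the background, and the 6 of 17 in the third stand beside 8.94%. Cd69, a lectin-like activation antigen of leukocytes, stood at 156, 165 and 198 CPM in the 3SL-labelled, 1.04, 0.574 and 1.22 CPM in the Pam3CSK4-labelled and 187, 215 and 197 CPM in the untreated-labelled libraries. Its difference between the 3SL-labelled and Pam3CSK4-labelled libraries, 190-fold (log2 change 7.57, SE 0.14, edgeR adjusted p = 2.48e-26), exceeded that of Clec4e. Clec4a1 averaged 496 ± 8.16 CPM in the 3SL-labelled, 61.6 ± 4.14 CPM in the Pam3CSK4-labelled and 440 ± 15.3 CPM in the untreated-labelled libraries (SD, n = 3 each), and like Clec4a2 and Clec4a3 it was highest in the 3SL-labelled libraries (0.17 against the untreated-labelled ones, SE 0.037, edgeR adjusted p = 0.00225). Cd302, an endocytic lectin, averaged 187 ± 5.27 CPM in the 3SL-labelled, 37.1 ± 0.632 CPM in the Pam3CSK4-labelled and 199 ± 2.42 CPM in the untreated-labelled libraries.

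The 5 lectin genes that ran the other way, as Mrc1 did, were Cd93, Thbd, Colec12, Clec10a and Clec2i. Cd93, a transmembrane lectin-like glycoprotein linked to the uptake of dying cells, averaged 234 ± 20.6 CPM in the 3SL-labelled, 761 ± 19.8 CPM in the Pam3CSK4-labelled and 208 ± 4.63 CPM in the untreated-labelled libraries (SD, n = 3 each), a log2 change of -1.71 (SE 0.043, edgeR adjusted p = 3.78e-23) in 3SL-labelled against Pam3CSK4-labelled libraries. Colec12, a scavenger receptor with a collagen-like stalk, averaged 24.8 ± 3.5 CPM in the 3SL-labelled, 67.1 ± 4.5 CPM in the Pam3CSK4-labelled and 25.2 ± 1.74 CPM in the untreated-labelled libraries. Clec10a, a galactose-type lectin that like Mrc1 is used as a marker of alternative activation, averaged 2.04 ± 0.457 CPM in the 3SL-labelled, 7.53 ± 0.363 CPM in the Pam3CSK4-labelled and 2.36 ± 0.675 CPM in the untreated-labelled libraries. Thbd, the thrombomodulin gene, averaged 8.0 ± 1.3 CPM in the 3SL-labelled, 26.9 ± 1.66 CPM in the Pam3CSK4-labelled and 6.09 ± 0.159 CPM in the untreated-labelled libraries.

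**Figure D5:**
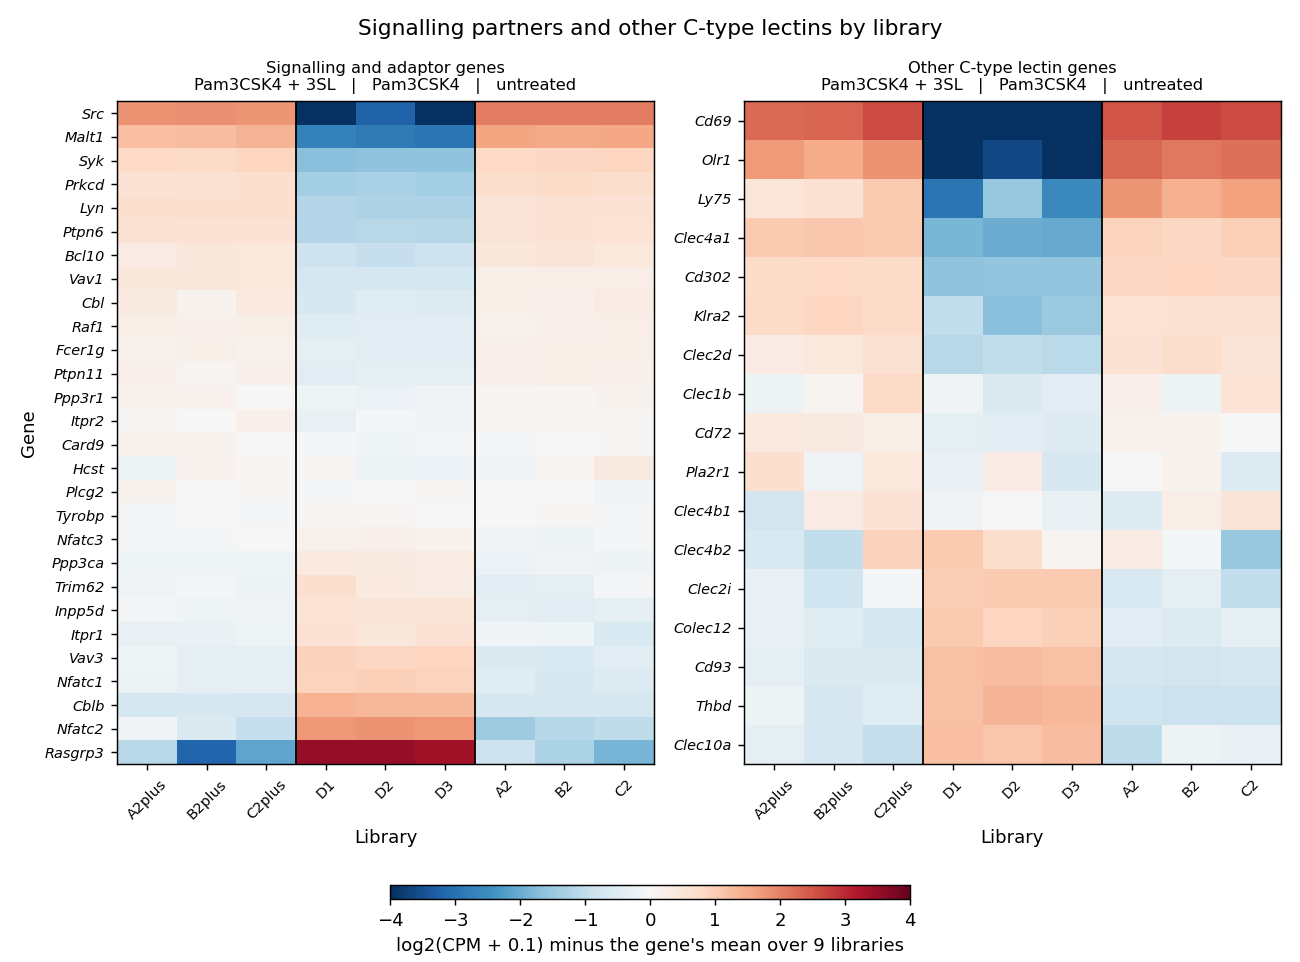
Each library's log2(CPM + 0.1) minus the gene's mean over the 9 libraries, from blue (low) to red (high) with colours capped at -4 and 4, for the 28 signalling genes (left) and the 17 tested other lectin genes (right), in order of their change between the 3SL-labelled and Pam3CSK4-labelled libraries. Genes such as Malt1, Syk, Cd69 and Clec4a1 are blue in D1, D2 and D3, and genes such as Rasgrp3, Cblb and Cd93 are red there. Tyrobp and Card9 sit near the middle. Between the 3SL-labelled and Pam3CSK4-labelled libraries, library size alone turns the direction of Card9. Tyrobp keeps its direction there but is called lower.

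The genes nearest in pattern were sought by the Euclidean distance of mean-centred log2 CPM over the 9 libraries. For Clec4e these were Cp, at a distance of 0.271, Gbp5 (0.563) and Mmp14 (0.585). Cp, the ceruloplasmin gene, averaged 267 ± 23.8 CPM in the 3SL-labelled, 2.17 ± 0.112 CPM in the Pam3CSK4-labelled and 337 ± 16.2 CPM in the untreated-labelled libraries (SD, n = 3 each). For Mrc1 they were Ptpra (0.112), Plekho1 (0.128) and Snx5 (0.13). Ptpra, a receptor-type tyrosine phosphatase gene, averaged 151 ± 2.64 CPM in the 3SL-labelled, 351 ± 2.13 CPM in the Pam3CSK4-labelled and 146 ± 3.45 CPM in the untreated-labelled libraries. These distances describe likeness over 9 libraries in 3 groups, most of it the step between the Pam3CSK4-labelled libraries and the rest.

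Summed dendritic and stromal markers were lower in the Pam3CSK4-labelled libraries than in both other groups. Summed neutrophil and progenitor markers of the Pam3CSK4-labelled libraries overlapped with both other groups, and the 3SL-labelled sums lay below the untreated-labelled ones. Dendritic cell markers, of which 4 of 7 passed the filter, summed to 88.3 to 91.7 CPM in the 3SL-labelled, 38.1 to 38.6 CPM in the Pam3CSK4-labelled and 89.7 to 92.4 CPM in the untreated-labelled libraries. Most of that was Itgax, which macrophages also express, at 84.8 ± 1.89 CPM in the 3SL-labelled, 36.3 ± 0.73 CPM in the Pam3CSK4-labelled and 82.5 ± 1.11 CPM in the untreated-labelled libraries, and Cd209a had no count in the 3SL-labelled libraries. Neutrophil and progenitor markers (7 of 8 tested) summed to 188 to 205 CPM in the 3SL-labelled, 187 to 243 CPM in the Pam3CSK4-labelled and 220 to 223 CPM in the untreated-labelled libraries. In Pam3CSK4-labelled against untreated-labelled libraries 3 of these 7 were called higher, Mpo (2.12-fold), Elane (2.19-fold) and Prtn3 (1.26-fold), and 3 lower, Camp (2.05-fold), Ngp (1.28-fold) and Ltf (1.13-fold, with overlapping libraries). With library size alone Ngp (log2 change -0.04) and Ltf (0.14) were no longer called in that comparison, and Cxcr2 (0.83) was called higher. Lymphocyte markers (0 of 5 tested) summed to 0.392 to 0.562 CPM in the 3SL-labelled, 0.535 to 1.21 CPM in the Pam3CSK4-labelled and 1.17 to 1.52 CPM in the untreated-labelled libraries, with Cd3e at 0 in the Pam3CSK4-labelled ones. Stromal markers (1 of 4 tested) summed to 7.03 to 9.35 CPM in the 3SL-labelled, 1.55 to 2.48 CPM in the Pam3CSK4-labelled and 11.8 to 12.9 CPM in the untreated-labelled libraries. The largest part on average was Pdgfrb, the 1 tested, at 6.9 ± 1.98 CPM in the 3SL-labelled, 1.12 ± 0.296 CPM in the Pam3CSK4-labelled and 10.3 ± 0.516 CPM in the untreated-labelled libraries. Col1a1, Col1a2 and Dcn averaged at most 0.66 CPM in any group. Libraries of Col1a1 and Col1a2 overlapped between all groups, and those of Dcn were lowest at the Pam3CSK4 label. Among macrophage markers Adgre1, the F4/80 gene, averaged 4207 ± 29.2 CPM in the 3SL-labelled, 1296 ± 29.5 CPM in the Pam3CSK4-labelled and 4300 ± 89.1 CPM in the untreated-labelled libraries. Cd68 averaged 953 ± 16.0 CPM in the 3SL-labelled, 1413 ± 25.9 CPM in the Pam3CSK4-labelled and 1026 ± 12.2 CPM in the untreated-labelled libraries, so these macrophage markers differed in opposite directions. Of the 8 macrophage markers, 5 were lower, 2 higher (Cd68 and Mertk) and 1 not called in the Pam3CSK4-labelled against the untreated-labelled libraries. Over all tested genes 35.9% were lower and 39.0% higher in that comparison. The part that cell make-up or macrophage maturity had in the values of the 9 genes was not tested.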

How the data were processed

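Cultured macrophages from bone marrow of C57BL6 mice were profiled in 9 libraries, 3 per label. Per the labels' protocols, RNA was extracted with TRIzol and libraries were made with the NEBNext Ultra RNA kit. The values used are raw counts per gene, as the authors deposited them in 1 table. HISAT2 2.1.0, featureCounts and Subread appear, per the submitters' processing notes, with no roles given, and the build named is hg38 although all gene identifiers are mouse. The annotation and the strand setting of the counting are not given in the sources used here. Reads from opposite strands may therefore share a count. A further 15 columns of that table were not used, and 92 identifiers had no symbol.

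The test was that of edgeR 4.0.16, run in R 4.3.3. The filterByExpr filter left 11469 genes (52.1%), all 9 receptor genes among them, with TMM factors and 1 quasi-likelihood model of 3 group means. P-values were adjusted by Benjamini-Hochberg over all tested genes, with calls at 0.05 and no fold limit. The script was tested on simulated data. CPM are relative to TMM-scaled totals and use exon lengths of GENCODE M21 where given per kb. Totals of 7472482 to 43980309 put 3 counts, the floor, at 0.0746 to 0.422 CPM, for counting error only. Replicates differed by more than sampling noise (chi-square per degree of freedom 1.83 to 3.1), so none was taken as a repeat deposit.

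Alternatives were other scalings, DESeq2 1.42.0, no filter, counts thinned to 7472482 per library, fits of the compared groups alone, leaving out each library and a block on the library letter. Besides the 9 genes, the text names 2 signalling genes and 4 other lectins by smallest p in the 3SL-labelled against the Pam3CSK4-labelled libraries, genes called against most of their list, the 3 nearest patterns of Clec4e and Mrc1, and Il1b and Tnf. The genes, lists and tests were chosen with earlier results of these data known. A gene of the list of other lectins is not reported here and stands outside its counts.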

Additional observations from a re-analysis of the deposited data

How the results depend on the processing

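Of 414 alternative values for the 9 genes, 394 kept their direction and side of the threshold, 14 changed sign, 5 newly passed and 1 no longer passed; the cause was not tested. With library size only, genes called higher and lower were 6882 and 2380 for the Pam3CSK4-labelled against the untreated-labelled libraries, 2434 and 6393 for 3SL-labelled against Pam3CSK4-labelled, and 788 higher for 3SL-labelled against untreated-labelled; Clec7a was then -0.04 in the first comparison and -0.06 in the second, Clec12a 0.01 and Mrc1 0.03 in the third. All other sign changes were in 3SL-labelled against untreated-labelled libraries, among values that passed no test. Clec5a was -0.01 with DESeq2 size factors, with the DESeq2 test, with no filter, without A2 and without B2, -0.02 thinned and -0.03 without C2plus. Mrc1 was 0.00 thinned and without B2, C2 or B2plus. Of the 9 genes, 2 were lower there with no filter and 2 when thinned, and 1 to 3 on leaving out 1 library. Leaving out 1 library gave 270 to 435 genes higher, the lowest without B2, and 356 to 603 lower, with 356 without B2 and 377 without A2plus. Whether the letters A to C pair the libraries is not stated. Same-letter deviations correlated at 0.0197 (A), 0.155 (B) and -0.0312 (C), and not every library correlated best with its own letter. With 3 libraries per group, these correlations cannot show whether same-letter libraries share a culture or an animal. With the letter as a replicate block on the 6 libraries, 402 genes were higher and 549 lower, against 439 and 586, and the calls of the 9 genes stayed at 2 higher and 1 lower. No paired analysis was possible for comparisons with the Pam3CSK4-labelled libraries because they share no letter with the others. Depth limits the low lectin genes, not the 9, whose smallest count was 236.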
